A study of Homo sapiens with 45 samples.

Results

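The comparison described here is a dose step of 1,6-hexanediol in hypoxic T47D cells: 3 libraries from cells given 1% of the alcohol for 24 h were set against 3 libraries from cells given 0.5% for 24 h. These 6 libraries were chosen by their labels from the 45 libraries of the series, and all genes in their count table were used. T47D is an oestrogen receptor positive, luminal human breast cancer cell line. The series measured gene expression by RNA sequencing in 15 groups of 3 libraries and asked which genes depend on hypoxia, on the transcription factor ZHX2 and on phase separation. A further group from the same table, labelled Ctrl, held 3 libraries from hypoxic cells and served as the dose of 0. All 9 libraries came from polyA RNA read as 150 bp pairs. Cells were grown in RPMI medium and made hypoxic in a hypoxia workstation. The protocol text shared by all samples also describes infection with lentivirus and selection with hygromycin or puromycin. Which of these 9 libraries that text applies to, the oxygen level, the length of hypoxia and the solvent given to the control cells were not stated by the labels. The labels do not say whether the 3 libraries of a group were separate cultures; the p-values rest on their spread alone, and it may be technical.

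1,6-Hexanediol is a small aliphatic alcohol that weakens hydrophobic contacts and disperses many protein condensates, the membraneless bodies in which transcription factors, Mediator and RNA-binding proteins gather. It is not selective for condensates and is toxic to cells at high dose or on long exposure. Cells under protein folding stress, amino acid shortage or oxidative stress phosphorylate the translation factor eIF2alpha, which lets the transcription factor ATF4 be made and switches on genes for amino acid supply, redox balance and, when stress lasts, cell death; the endoplasmic reticulum has further sensors of its own, IRE1 and ATF6. In luminal breast cancer cells ESR1, FOXA1 and GATA3 maintain oestrogen response and the simple epithelial keratins.

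Each library held 14111216 to 17713327 counts over 60624 genes, and 16840 genes had enough counts to be tested. Levels are given as CPM, counts per 1000000 counts of a library, with library sizes scaled by the TMM method, so they are relative to the other RNA of the same library. Gene coordinates are those of the annotation on GRCh38 (hg38). The 10 luminal markers summed to 25132 to 27960 CPM in the control libraries, 10942 to 15546 CPM at 0.5% and 3624 to 3868 CPM at 1%. KRT8, KRT18 and KRT19 made up most of these sums, with KRT8 alone at 15129 to 17038 CPM in the control libraries. At 0.5% these keratins and EPCAM lay below the control libraries, GATA3, FOXA1 and SPDEF lay above them, and ESR1, PGR and CDH1 overlapped them. None of the luminal markers was at 0 counts over the 9 libraries. Markers of other cell types were low throughout: 4 basal markers summed to 1.98 to 2.80 CPM, 4 endothelial markers to 3.29 to 5.24 CPM, 4 leukocyte markers to 1.87 to 5.70 CPM and 6 fibroblast markers to 39.3 to 52.9 CPM, and none of them was at 0 counts over the 9 libraries. The second library of each treated group stood apart from the other libraries of its group. In a chi-square test of counts over genes, its statistic per degree of freedom against them was 25 and 23.1 at 0.5%, and 8.46 and 8.58 at 1%, against 1.90 to 3.71 for every other pair within a group. Where leaving out these 2 libraries ended or made a call described here, the value without them is given too. Mitochondrial transcripts took 6.54%, 4.88% and 6.26% of counts at 0.5% and 4.38%, 4.37% and 4.56% at 1%; the 2 groups did not overlap, and the two-sided exact permutation test gave p = 0.1, the smallest that 3 against 3 libraries allow.

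Raising the dose from 0.5% to 1% changed 56.0% of the genes that could be tested. In edgeR's quasi-likelihood test with Benjamini-Hochberg adjustment, 4762 genes rose and 4673 fell at an adjusted p under 0.05, which is 28.3% and 27.7% of the genes tested. These 2 shares are the background for the counts in each gene list. The CPM values of the 2 doses did not overlap for 10034 genes (59.6%). At least 2-fold changes numbered 1505 rises and 1598 falls, or 8.94% and 9.49%. The median log2 fold change over all genes was -0.02. The first step, from the control to 0.5%, gave 3265 rises (19.4%) and 3301 falls (19.6%), with 488 (2.90%) and 778 (4.62%) of at least 2-fold, so more genes changed, and by more, in the second step. That split of the first step depended on scaling: with library sizes alone it became 4564 rises and 2356 falls, with a median over all genes of 0.12 in place of 0.00. The 2 steps share the 0.5% libraries, so a value that is low in those libraries lowers the first step and raises the second. A test of the second step minus the first, on the log2 scale, called 3350 genes higher (19.9%) and 3449 lower (20.5%).

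The genes that rose most across the dose step were near the limit of detection at 0.5%. Largest rises and falls were taken from genes whose doses did not overlap, so that separation was fixed by the choice. INHBE, which encodes a subunit of activin E (chromosome 12, 57452323 to 57459280, plus strand), stood at 0.451, 0.331 and 0.403 CPM at 0.5% and 15.3, 15.8 and 14.2 CPM at 1%. All 3 libraries at 1% lay far above the 0.5% libraries, for a rise of 37.4-fold (log2 fold change 5.22, SE 0.24, adjusted p = 4.68e-10), and the control libraries held 0.278, 0.899 and 0.522 CPM. KCNE4, a potassium channel subunit, rose 31.1-fold, GNG2, a G protein gamma subunit, 30.7-fold, and the imprinted Ras-like gene DIRAS3 30.4-fold. None of these reached 1 CPM in any library at 0.5%. MAP1B, a microtubule-associated protein best known from neurons (chromosome 5, 72107234 to 72209570, plus strand), rose from a higher level, from 5.55, 4.43 and 7.05 CPM at 0.5% to 130.0, 173 and 140.3 CPM at 1%, which is 26.0-fold (log2 fold change 4.70, SE 0.16, adjusted p = 1.99e-10); its control libraries held 6.67, 5.17 and 6.26 CPM. LAMP3, a lysosomal membrane protein, stood at 8.84, 9.60 and 8.60 CPM at 0.5% and 198, 246 and 210.3 CPM at 1%, a rise of 24.2-fold that followed a rise of 3.62-fold in the first step. FIBIN rose 25.2-fold, the P5-type ATPase ATP13A4 16.5-fold and the ubiquitin ligase RNF150 15.4-fold. CYP1A1, a cytochrome P450 induced through the aryl hydrocarbon receptor, was measured at 8.96, 2.38 and 9.40 CPM at 0.5% and 151, 48.9 and 151 CPM at 1%. Its second libraries were the lowest of their groups at both doses, and the rise had a wider error than the others (log2 fold change 4.08, SE 0.63, adjusted p = 0.00151).

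Among the largest falls were secreted and membrane proteins. IGFBP5, a secreted binding protein of insulin-like growth factors (chromosome 2, 216672105 to 216695525, minus strand), stood at 3569.9, 3696 and 3837 CPM at 0.5% and 287, 254 and 302 CPM at 1%, and at 3894, 3612 and 4171 CPM in the control libraries. The 1% libraries lay below all 6 others, and the fall came to -3.72 on the log2 scale (SE 0.09, adjusted p = 1.1e-12). In the first step IGFBP5 was not called (log2 fold change -0.07, adjusted p = 0.505). PIP, a secreted protein of luminal and apocrine cells, stood at 29.3, 28.8 and 23.6 CPM at 0.5% and 2.10, 1.48 and 2.92 CPM at 1%. PIP had risen in the first step (log2 fold change 0.84) and fell in the second (log2 fold change -3.66). SRARP, the steroid receptor-associated protein gene, and the metalloreductase STEAP4 fell by 4.35 and 3.90 on the log2 scale. For both the first step was a rise (log2 fold changes 1.78 and 1.59). The coiled-coil gene CCDC177 fell by 4.58, the tetraspan gene TM4SF18 by 3.85, C2orf72 by 3.69 and ANKRD35 by 3.68. In CDH10, a cadherin, VTCN1, an immune checkpoint ligand, and FGD5, an exchange factor for Cdc42, the second library at 0.5% was several times lower than the others of its group. VTCN1 stood at 56.9, 7.54 and 58.6 CPM at 0.5% and 2.96, 1.43 and 2.61 CPM at 1% (log2 fold change -4.16, SE 0.88, adjusted p = 0.00686), and without both second treated libraries its log2 fold change was -4.37.

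**Figure D1:**
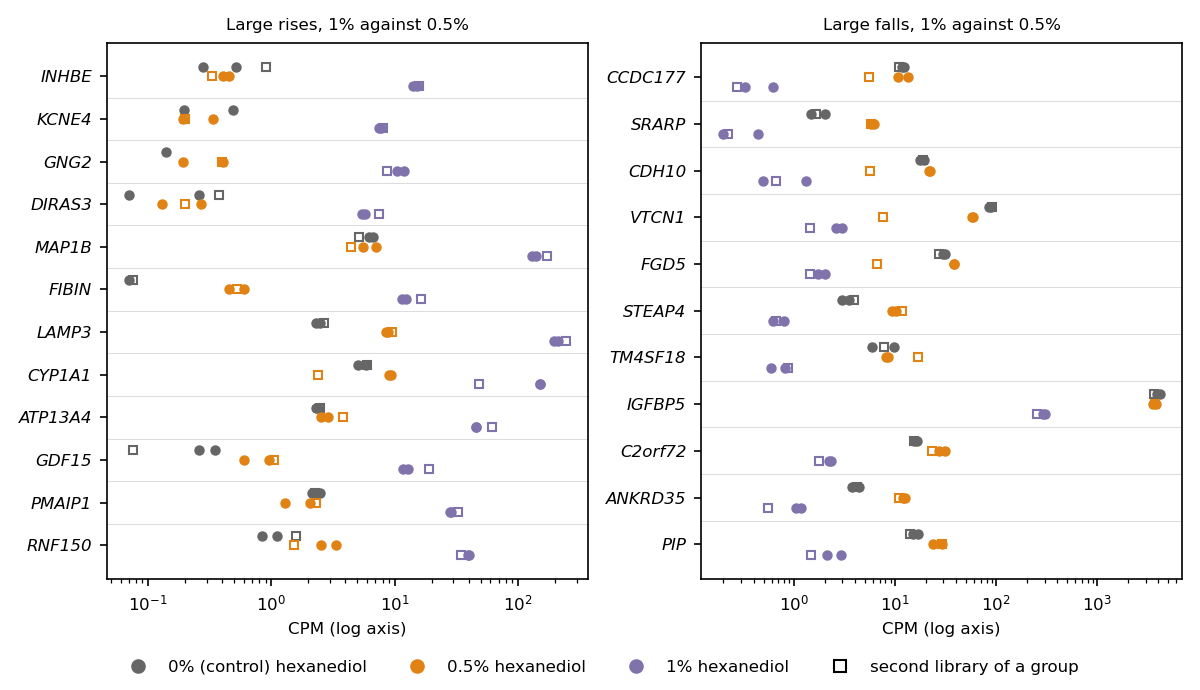
CPM of the genes named above, and of GDF15 and PMAIP1, for the large rises and falls of the dose step, by library, on a log axis, with control, 0.5% and 1% libraries as separate symbols. The genes drawn were chosen among those whose 1% libraries lay apart from the 0.5% libraries. Most of the rising genes sit at or under a few CPM in both the control and the 0.5% libraries. The 4 control values of 0 CPM cannot be drawn.

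The ATF4 and integrated stress response genes rose together. Of the 37 members tested, 31 rose and 2 fell, 21 of the rises at least 2-fold, with a median log2 fold change of 1.27 against -0.02 over all genes. DDIT3 (CHOP), a transcription factor that promotes death under lasting stress (chromosome 12, 57516588 to 57521737, minus strand), stood at 127, 106 and 131 CPM at 0.5% and 780.4, 1019.6 and 775 CPM at 1%. The doses did not overlap, and the rise was 7.07-fold (log2 fold change 2.82, SE 0.11, adjusted p = 3.52e-10). It followed a rise from 32.3, 32.1 and 30.5 CPM in the control libraries. GDF15, a secreted cytokine of stressed cells, was measured at 0.967, 1.06 and 0.604 CPM at 0.5% and 11.6, 19.1 and 12.9 CPM at 1%, a rise of 16.5-fold (log2 fold change 4.04, SE 0.27, adjusted p = 1.72e-08). Every 1% library lay well above every 0.5% library. ATF3, a stress-induced transcription factor, had fallen in the first step and rose above its control level in the second: it stood at 46.8, 44.7 and 46.0 CPM in the control libraries, and at 24.6, 11.2 and 25.3 CPM at 0.5% and 132, 141 and 138 CPM at 1%. CHAC1, which degrades glutathione, rose 4.13-fold. ATF4 itself, chosen after its values were seen, rose by much less, from 491, 384 and 434 CPM to 549.6, 599.7 and 535 CPM (log2 fold change 0.36, and 0.23 without both second treated libraries).

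The enzymes that make amino acids formed the other arm of that group. ASNS, asparagine synthetase, stood at 0.387, 0.331 and 0.806 CPM at 0.5% and 3.94, 2.80 and 3.54 CPM at 1%. Although every 1% library lay above every 0.5% library (log2 fold change 2.74, SE 0.31, adjusted p = 2.89e-06), no library went above 4 CPM. PSAT1, of serine synthesis, rose 4.48-fold from 13.9, 14.0 and 14.4 CPM to 57.2, 75.8 and 56.1 CPM. NUPR1, a stress-induced chromatin protein, rose 1.31-fold, at 1277, 1446 and 1274 CPM at 0.5% and 1603, 1943 and 1679.6 CPM at 1%, after a larger first step (log2 fold change 1.10). STC2, a secreted glycoprotein that is also an oestrogen target, was the largest fall of the group, at 1205, 412 and 1208 CPM at 0.5% and 261, 209.8 and 274 CPM at 1% (log2 fold change -1.92, SE 0.41, adjusted p = 0.00664). The second library was the lowest of the STC2 values at each dose, and the doses did not overlap. In the first step the same list gave 19 rises and 4 falls with a median of 0.43, and the second step exceeded the first for 20 members and fell short of it for 4. At 1%, 29 of the 37 had every library above every control library and 3 had every library below, where the shares over all genes were 33.7% and 36.6%.

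Promoter sequences were matched to 32 of these 37 genes. They were searched on both strands, from 250 bases before the gene start to 50 after it, for TGATGNAA, the C/EBP-ATF response element through which ATF4 acts. It was present in 7 of the 32, or 21.9%, against 1.74% of the promoters of all genes tested, and all 7 of those genes rose. Of the 25 without it, 19 rose and 2 fell. The list was named for the ATF4 response, so a higher share of the ATF4 element in it does not test the dose step. The same holds for the motifs searched in the lists below, each chosen for its list. The windows around the match in ASNS and in CHAC1 are shown because these genes rose by 2.74 and 2.05 on the log2 scale; both are RefSeq sequence on GRCh38.p14, 5′ to 3′ on the gene's strand, with the match in capitals. The ASNS window is chr7:97872439-97872506, minus strand, and the CHAC1 window is chr15:40953232-40953299, plus strand, where the match reads on the opposite strand.
ASNS: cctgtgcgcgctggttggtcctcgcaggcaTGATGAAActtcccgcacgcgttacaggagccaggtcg
CHAC1: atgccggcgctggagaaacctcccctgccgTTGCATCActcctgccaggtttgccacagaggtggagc

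**Figure D2:**
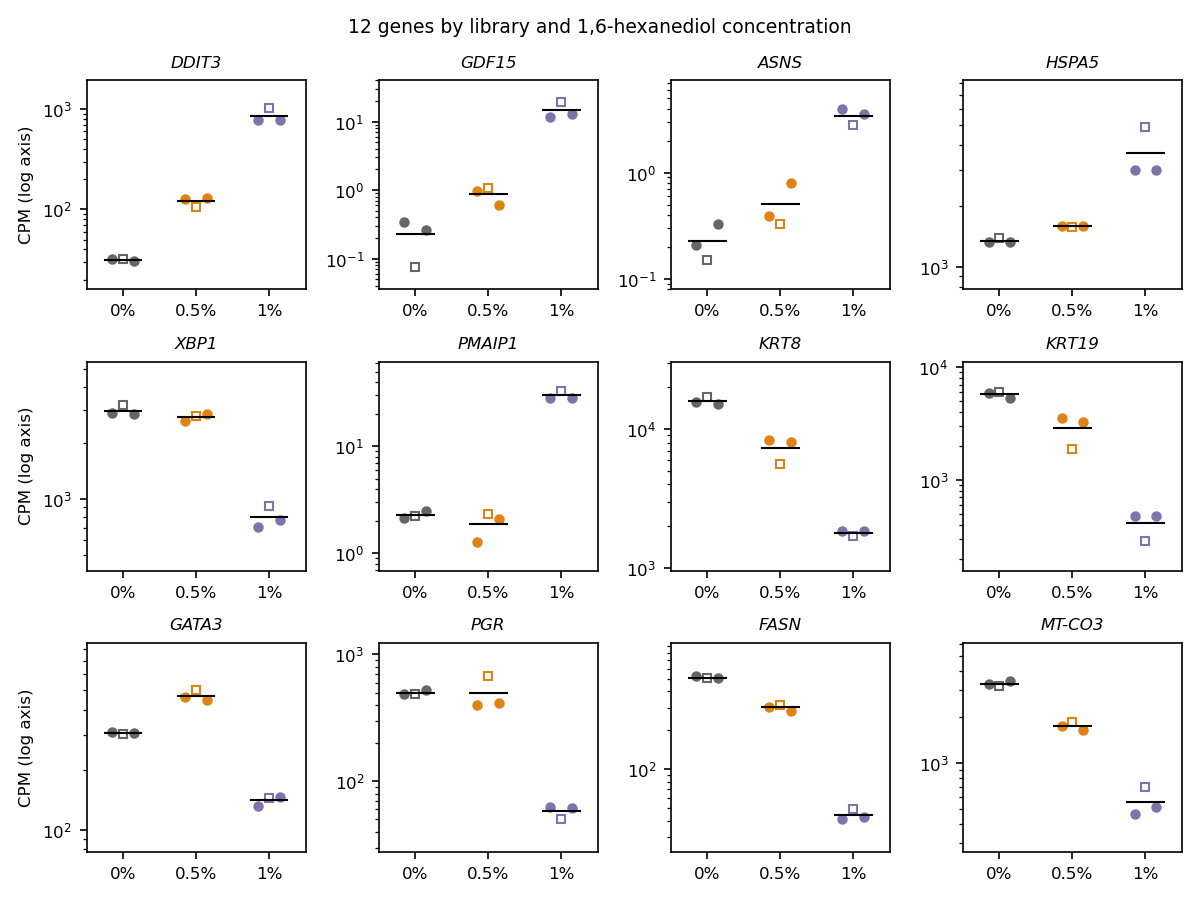
CPM of 12 genes in each of the 9 libraries at 0%, 0.5% and 1% hexanediol. Points are libraries, squares are the second library of each group, the control included, and bars are the group mean. DDIT3, GDF15, ASNS, HSPA5 and PMAIP1 are highest at 1%, and XBP1, KRT8, KRT19, GATA3, PGR, FASN and MT-CO3 are lowest at 1%.

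Genes of the endoplasmic reticulum moved in both directions. Of 28 tested members of the chaperone and unfolded protein response list, 16 rose (57.1%) and 7 fell (25%), against 28.3% and 27.7% of all genes, with a median log2 fold change of 0.36; the first step had given 5 rises and 7 falls. With GC and length corrected the median was 0.19, with 13 rises and 7 falls. ERN1, which encodes the sensor IRE1, stood at 13.1, 14.6 and 13.2 CPM at 0.5% and 73.9, 83.3 and 76.9 CPM at 1% and rose 5.72-fold (log2 fold change 2.52, SE 0.09, adjusted p = 5.27e-11). ATF6, the second sensor named above, rose 2.32-fold, from 56.5, 64.7 and 60.2 CPM to 132, 146 and 143 CPM. For both sensors the 3 libraries at 1% lay above all others, controls included. HSPA5, the main chaperone of this compartment (BiP), stood at 1597, 1581 and 1587 CPM at 0.5% and 3013, 4867 and 2997 CPM at 1%. Its second library at 1% was well above the other 2, and the rise was 2.28-fold (log2 fold change 1.19, SE 0.16, adjusted p = 0.000156). HYOU1 and HSPA13, further chaperones of the Hsp70 family, rose 4.19-fold and 4.25-fold.

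XBP1, the transcription factor that IRE1 activates by splicing its transcript, went the other way. It stood at 2911, 3185 and 2877 CPM in the control libraries, and at 2612, 2778 and 2882 CPM at 0.5% and 706, 921 and 769 CPM at 1%. Control and 0.5% libraries overlapped, the 1% libraries lay below all of them, and the fall from 0.5% was 1.79 on the log2 scale (SE 0.09, adjusted p = 1.37e-09). Gene counts do not separate the spliced from the unspliced transcript, and XBP1 is also an oestrogen receptor target. HSP90B1, a chaperone of the Hsp90 family, rose 1.20-fold (log2 fold change 0.26, adjusted p = 0.00744), a call that was lost with GC and length corrected (log2 fold change 0.03, adjusted p = 0.733). The disulfide isomerases P4HB, PDIA3 and PDIA4 and the calcium-binding chaperone CALR, chosen after their values were seen, fell by 0.64, 0.32, 0.49 and 0.39. The 26 promoters matched to this list were searched for the endoplasmic reticulum stress element (CCAAT, 9 bases of any kind, then CCACG, on either strand), which 7 of them held (26.9%, against 0.125% of the promoters of all genes tested). Of the 7 genes, 3 rose (HSPA5, HSP90B1 and ERO1B), 2 fell (CALR and XBP1) and CANX and CRELD2 were not called. With GC and length corrected ERO1B, like HSP90B1, was no longer called (adjusted p = 0.368), and CRELD2 was called lower without both second treated libraries (adjusted p = 0.00614). HSPA5 and XBP1 are shown side by side because their promoters share the element and their transcripts moved in opposite directions: chr9:125241361-125241439, minus strand, and chr22:28800573-28800651, minus strand, both from RefSeq on GRCh38.p14 with the element in capitals.
HSPA5: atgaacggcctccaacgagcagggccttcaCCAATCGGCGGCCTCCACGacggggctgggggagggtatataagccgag
XBP1: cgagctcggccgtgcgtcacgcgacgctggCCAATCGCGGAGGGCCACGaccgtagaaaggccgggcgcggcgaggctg

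Cytosolic chaperones fell or were not called at 0.5% and many of them rose at 1%. The heat shock list had 0 rises and 14 falls among 25 tested genes in the first step (median log2 fold change -0.36), and 13 rises and 3 falls in the second (median 0.23, or 0.40 without the second library at 0.5%); the step difference was called higher for 14 and lower for 2. HSPA8, the constitutive Hsp70 of the cytosol, stood at 2425, 2525 and 2354 CPM in the control libraries, then at 1475, 2009 and 1408 CPM at 0.5% and 3487, 4658 and 3505 CPM at 1%. The 1% libraries lay above both other groups (log2 fold change 1.25, SE 0.15, adjusted p = 3.07e-05). HSPA4L rose 2.79-fold, at 81.8, 81.5 and 84.9 CPM at 0.5% and 234, 225 and 234 CPM at 1%, and HSPB8, a small heat shock protein of chaperone-assisted autophagy, rose 2.92-fold after a fall in the first step (log2 fold change -0.95). The transcription factor HSF2 and the co-chaperone DNAJB4 rose 2.503-fold and 2.49-fold. HSPB1, another small heat shock protein, fell from 147, 200.3 and 131 CPM to 52.4, 56.4 and 66.9 CPM (log2 fold change -1.45, SE 0.16, adjusted p = 1.8e-05). The cytosolic Hsp90 genes were not called: HSP90AA1 had a log2 fold change of 0.11 (adjusted p = 0.63) and HSP90AB1 of 0.10 (adjusted p = 0.221). HSP90AA1 was called without both second treated libraries (log2 fold change 0.18, adjusted p = 0.0137), and HSP90AB1 with scaling by library size only (log2 fold change 0.15, adjusted p = 0.0343). The classical inducible Hsp70 genes, looked up after the list was counted, did not rise: HSPA1A fell by 0.45 on the log2 scale (not called with GC and length corrected, adjusted p = 0.449) and HSPA1B was not called (log2 fold change 0.03, adjusted p = 0.865). HSPA1A and HSPA1B are near-identical copies, so their reads can be split or lost in counting.

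Among apoptosis regulators, 14 of 27 rose (51.9%) and 5 fell (18.5%), against 28.3% and 27.7% of all genes. The 3 largest rises were of genes that promote death. PMAIP1, which encodes the BH3-only protein NOXA (chromosome 18, 59899948 to 59904306, plus strand), stood at 2.15, 2.25 and 2.48 CPM in the control libraries and at 1.29, 2.32 and 2.08 CPM at 0.5% and 28.5, 33.0 and 28.4 CPM at 1%. Control and 0.5% libraries overlapped, and every 1% library lay far above them, a rise of 15.8-fold (log2 fold change 3.98, SE 0.16, adjusted p = 1.84e-10). HRK, another BH3-only gene, rose 12.7-fold from 0.58, 0.331 and 0.336 CPM to 5.39, 5.33 and 5.47 CPM, and the death receptor TNFRSF10B (DR5), a known target of DDIT3, rose 4.19-fold. FAS, a further death receptor, rose 2.02-fold. BIRC3 and BIRC2, which encode inhibitors of cell death, rose as well (2.84-fold and 1.29-fold), although the rise of BIRC2 was not called with GC and length corrected (log2 fold change 0.04, adjusted p = 0.675). BID fell in both steps, with log2 fold changes of -1.22 and -1.23. MCL1, an anti-apoptotic BCL2 relative, was not called (log2 fold change 0.01, SE 0.06, adjusted p = 0.862).

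The p53 target list gave 10 rises (45.5%) and 5 falls (22.7%) among 22 genes, against 28.3% and 27.7% of all genes. GADD45A, a growth arrest gene that is also induced by stress signals other than p53, stood at 6.00, 5.89 and 6.85 CPM at 0.5% and 91.1, 94.6 and 98.8 CPM at 1% and rose 15.2-fold (log2 fold change 3.92, SE 0.09, adjusted p = 1.1e-12), with 2.85, 3.30 and 3.06 CPM in the control libraries. CDKN1A, the cell cycle inhibitor p21, stood at 5.93, 3.51 and 5.51 CPM at 0.5% and 19.9, 28.5 and 22.0 CPM at 1%, so that the 1% libraries lay above the control libraries (9.73, 10.5 and 9.72 CPM) and the 0.5% libraries below them. ZMAT3, RRM2B and SESN1 rose 2.08-fold, 1.97-fold and 1.81-fold, while XPC was not called (log2 fold change 0.10, and 0.20 with a call once GC and length were corrected). PLK2, a kinase of the same pathway, fell from 303, 181 and 307 CPM to 52.0, 36.3 and 53.3 CPM (log2 fold change -2.49, SE 0.23, adjusted p = 3.73e-05). With the 6 treated libraries alone 6 of the list's genes were called higher, and without the second library at 1% 3 were called lower.

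Lysosome and autophagy genes rose more often than they fell, with 19 rises (57.6%) and 6 falls (18.2%) among 33 and a median log2 fold change of 0.41, or 0.27 with GC and length corrected. Apart from LAMP3, the largest rises were MITF, a transcription factor of lysosomal genes (5.91-fold, from 1.74, 2.18 and 1.68 CPM to 11, 12.1 and 10.1 CPM), the protease CTSL (3.49-fold), the nutrient-sensing GTPase RRAGD (2.83-fold) and the autophagosome protein GABARAPL1 (2.08-fold). CTSL stood at 77.4, 78.3 and 76.3 CPM at 0.5% and 256, 278 and 275 CPM at 1%, with 1% libraries above all others. The protease CTSB fell by 0.74 after a rise in the first step (log2 fold change 0.43), and the cargo receptor NBR1 was not called (log2 fold change 0.14, adjusted p = 0.0925; adjusted p = 0.0302 without both second treated libraries and 0.0472 with the replicate block). At 1%, 23 of the 33 had every library above the control libraries and 4 had every library below, where the shares over all genes were 33.7% and 36.6%.

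The NRF2 and antioxidant list was split, with 10 rises (40.0%) and 6 falls (24.0%) among 25 and a median of -0.09, or 0.09 with GC and length corrected. Its rises included enzymes of carbonyl reduction and glutathione supply. AKR1C1 and AKR1C2, aldo-keto reductases with near-identical sequences whose reads cannot be fully told apart, rose 11-fold and 11.2-fold, the latter from 0.709, 0.993 and 1.01 CPM to 9.99, 11.4 and 9.07 CPM. SLC7A11, the cystine transporter, stood at 18.8, 19.7 and 16.0 CPM at 0.5% and 74.1, 78.8 and 67.9 CPM at 1% (log2 fold change 2.02, SE 0.10, adjusted p = 8.17e-10). GCLM, of glutathione synthesis, rose 3.67-fold, SRXN1 2.64-fold and the haem-degrading enzyme HMOX1 2.61-fold. TXNRD1, thioredoxin reductase, rose 1.51-fold, and PGD, of the pentose phosphate pathway, was not called (log2 fold change -0.09, adjusted p = 0.351). SLC7A11 is also a member of the ATF4 list. Without both second treated libraries 10 genes of the list were called higher and 10 lower.

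**Figure D3:**
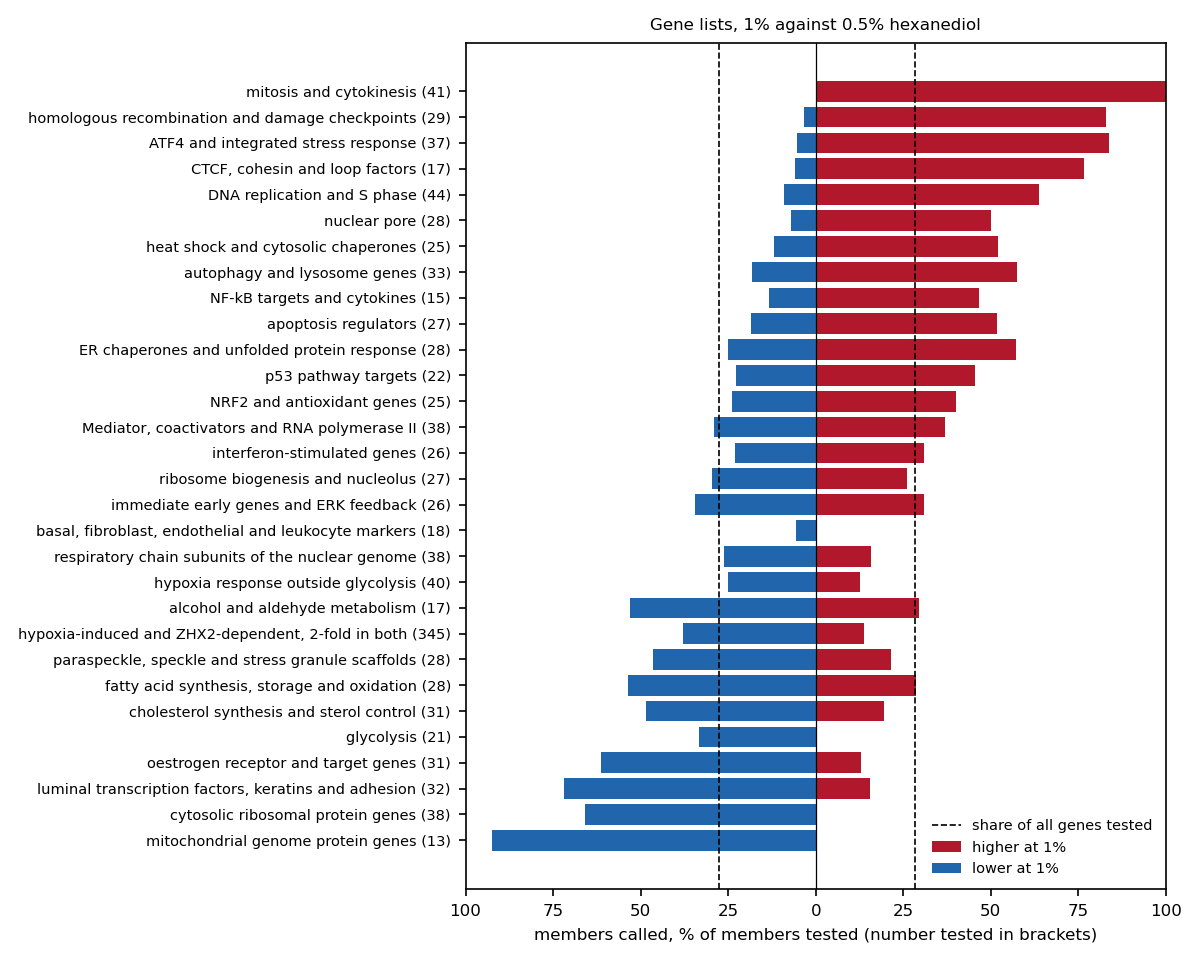
Members of each gene list that rose or fell in the dose step, as a percentage of the members tested, with dashed lines at the 28.3% and 27.7% of all genes that rose and fell. Mitosis, the ATF4 response and homologous recombination have the largest shares of rises, and the mitochondrial genome and luminal lists the largest shares of falls.

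The replication and mitosis genes listed all fell at 0.5% and most rose at 1%, but the phases of the cycle differed in how far they came back. All 44 replication genes and all 41 mitosis genes had fallen in the first step, with median log2 fold changes of -2.24 and -1.25. In the second step all 41 mitosis genes rose, 38 of them at least 2-fold, with a median of 1.46, while 28 of the 44 replication genes rose and 4 fell, with a median of 0.62. Set against the control mean, the median mitosis gene stood at -1.25 on the log2 scale at 0.5% and at 0.24 at 1%, with a range of -1.26 to 1.41 at 1%. The median replication gene stood at -2.25 at 0.5% and at -1.79 at 1%, with a range of -4.41 to 0.61. At 1%, 24 of 41 mitosis genes had all libraries above all control libraries and 11 had all below, whereas 2 of 44 replication genes lay above and 41 below. Over all genes 33.7% lay above and 36.6% below. Every gene of both lists was called in the step difference, all with the second step higher.

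MKI67, the proliferation antigen Ki-67, stood at 803, 745 and 866 CPM in the control libraries, and at 229.8, 155 and 249 CPM at 0.5% and 752, 644 and 757 CPM at 1%. The 0.5% libraries were several times below both other groups, and the 1% libraries reached the lower end of the control range (log2 fold change 1.77, SE 0.16, adjusted p = 5.15e-06). CENPE, a kinesin of the kinetochore, went past its control level: it held 117, 116 and 121 CPM in the control libraries, and stood at 81.8, 52.1 and 89.6 CPM at 0.5% and 316, 304 and 316 CPM at 1%. CENPA, the centromeric histone, did the same, with 9.66, 9.66 and 7.69 CPM in the control libraries and 6.45, 3.97 and 5.30 CPM at 0.5% and 17.6, 20.8 and 19.6 CPM at 1%. The transcription factor MYBL2, by contrast, stayed under its control level, at 483, 457 and 445 CPM in the control libraries, and at 69.6, 88.4 and 64.5 CPM at 0.5% and 286, 271 and 277 CPM at 1%, although its rise from 0.5% was 3.75-fold. MAD2L1, of the spindle checkpoint, CENPF and the kinetochore genes NDC80 and SPC25 rose 3.64-fold, 2.32-fold, 3.45-fold and 4.03-fold. Among the replication genes ORC6, a subunit of the origin recognition complex, rose most, to above its control level, at 36.8, 41.2 and 35.9 CPM in the control libraries, and at 8.58, 7.61 and 8.06 CPM at 0.5% and 55.7, 63.7 and 53.8 CPM at 1% (log2 fold change 2.84, SE 0.10, adjusted p = 6.16e-11). MCM3, a subunit of the replicative helicase, was not called (log2 fold change 0.06, adjusted p = 0.8), after a fall of 2.65 on the log2 scale in the first step. Without both second treated libraries MCM3 was called higher (log2 fold change 0.41, adjusted p = 6.1e-06). CLSPN, of the replication checkpoint, rose 5.58-fold to 18.5, 14.2 and 17.2 CPM, which left it below its control libraries (49.95, 51.5 and 54.1 CPM). CDC45, MCM10, DTL and RFC4 rose 3.16-fold, 3.05-fold, 2.86-fold and 2.79-fold, and of these RFC4 alone passed its control libraries. DNMT1, the maintenance DNA methyltransferase, was not called in the dose step (log2 fold change -0.27, adjusted p = 0.15), but was lower without the first library at 0.5% (log2 fold change -0.43, adjusted p = 0.0119). In bulk libraries a change in the share of cells in a phase and a change of the transcript within cells cannot be told apart.

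Of 29 homologous recombination and checkpoint genes 24 rose and 1 fell, with a median of 0.78, after 2 rises and 23 falls in the first step. At 1%, 6 of the 29 had every library above every control library and 18 had every library below. The shares over all genes were 33.7% and 36.6%. With GC and length corrected 19 rose and 3 fell, and without both second treated libraries 2 fell. BRCA1 (chromosome 17, 43044295 to 43170245, minus strand) stood at 65.7, 64.2 and 65.7 CPM in the control libraries, and at 14.1, 15.9 and 16.0 CPM at 0.5% and 94.3, 81.3 and 96.4 CPM at 1%. Its 1% libraries lay above the control libraries, and its 0.5% libraries far below (log2 fold change 2.56, SE 0.09, adjusted p = 5.18e-11). EXO1, POLQ, RAD51AP1 and BRCA2 rose 4.69-fold, 3.21-fold, 2.99-fold and 2.94-fold. The kinase ATM was not called (log2 fold change 0.11; -0.18 and called lower with GC and length corrected), and MRE11 rose by 0.28 on the log2 scale, while after a correction for GC content and length its value was -0.04 and it was not called. Among the genes with the largest positive step differences were, beside INHBE, the replication genes CLSPN and MCM10, the cell cycle repressor E2F7, the S phase gene FAM111B and TCF19. E2F7 stood at 24.7, 23.7 and 28.2 CPM in the control libraries, and at 4.64, 2.38 and 3.29 CPM at 0.5% and 27.2, 16.3 and 27.7 CPM at 1%, so that 2 libraries at 1% were at the control level and the second was below it. FAM111B was still far below its control at 1%, with 167, 175 and 169.9 CPM in the control libraries against 22.6, 14.0 and 24.98 CPM.

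Promoters were matched to 38 replication genes and 34 mitosis genes. The E2F motif TTTNNCGC was present in 25 of the 38 (65.8%), and the cell cycle homology region TTTGAA, through which the DREAM complex binds mitotic genes, in 22 of the 34 (64.7%); each is present in 10.0% of the promoters of all genes tested. Among replication genes 13 of the 25 with the E2F motif rose and 2 fell, and 10 of the 13 without it rose and 2 fell. Among mitosis genes all 22 with TTTGAA and all 12 without it rose. The windows shown are those of ORC6, which rose, and MCM3, whose call depended on the second libraries, to show that both carry the E2F motif, and those of CENPA and PLK1 for TTTGAA, the last chosen after its values were seen. They are chr16:46689506-46689573 (plus strand, match on the opposite strand), chr6:52284879-52284946 (minus strand), chr2:26786008-26786055 (plus strand) and chr16:23678830-23678888 (plus strand). All are from RefSeq on GRCh38.p14, with a match in capitals. The MCM3 window holds a second E2F match, GCGGAAAA on the opposite strand, left in lower case.
ORC6: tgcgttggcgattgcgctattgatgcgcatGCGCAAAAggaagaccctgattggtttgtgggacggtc
MCM3: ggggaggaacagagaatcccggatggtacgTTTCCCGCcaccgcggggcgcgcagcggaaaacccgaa
CENPA: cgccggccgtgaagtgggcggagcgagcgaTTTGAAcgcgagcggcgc
PLK1: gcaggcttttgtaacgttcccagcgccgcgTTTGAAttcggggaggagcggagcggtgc

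**Figure D4:**
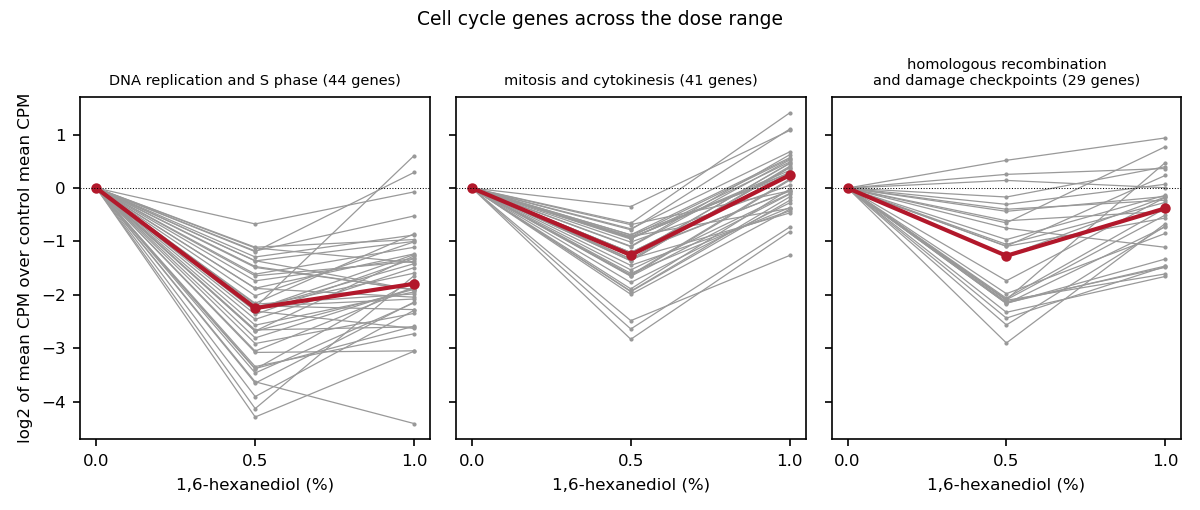
Log2 of the mean CPM at each dose over the control mean for replication, mitosis and homologous recombination genes, with a thin line per gene and a thick line for the median. The median mitosis gene returns from -1.25 at 0.5% to 0.24 at 1%, while the median replication gene moves from -2.25 to -1.79.

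Genes that define luminal cells mostly fell at the second step. Of 32 luminal transcription factor, keratin and adhesion genes, 23 fell and 5 rose, 19 of the falls at least 2-fold, with a median log2 fold change of -1.13. In the first step the same list had 15 rises and 5 falls and a median of 0.22, and the step difference was lower for 22 and higher for 4. KRT8, a simple epithelial keratin (chromosome 12, 52897187 to 52949954, minus strand), fell in both steps: it stood at 15603, 17038 and 15129 CPM in the control libraries, and at 8396, 5569.9 and 8035 CPM at 0.5% and 1842, 1714 and 1845 CPM at 1% (log2 fold change -2.03, SE 0.13, adjusted p = 7.01e-08). Its partner in the luminal keratin pattern, KRT19, did likewise, at 5870.0, 6045 and 5343 CPM in the control libraries, and at 3575, 1884 and 3239 CPM at 0.5% and 481, 289 and 473 CPM at 1% (log2 fold change -2.81, SE 0.30, adjusted p = 0.000169). In both keratins the 3 groups of libraries did not overlap, and the second library was the lowest of each treated group. ESR1, the oestrogen receptor, was not called in the first step and fell in the second, at 152, 143 and 157 CPM in the control libraries, and at 123, 175 and 131 CPM at 0.5% and 34.0, 32.1 and 32.6 CPM at 1% (log2 fold change -2.12, SE 0.12, adjusted p = 3.53e-09).

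The prolactin receptor PRLR and the ETS factor SPDEF rose at 0.5% and fell at 1%. SPDEF held 47.9 to 58.7 CPM in the control libraries. PRLR stood at 1199.9, 1485 and 1289 CPM at 0.5% and 276, 275 and 276 CPM at 1%, and SPDEF at 94.5, 88.5 and 86.3 CPM at 0.5% and 20.8, 19.3 and 18.1 CPM at 1%; for both genes every 1% library lay below every control library. GATA3 and FOXA1, which keep luminal chromatin open and were chosen after their values were seen, also rose in the first step (log2 fold changes 0.62 and 0.30) and fell in the second (log2 fold changes -1.74 and -1.77). KLF5, a factor shared with basal cells, was the largest of the 5 rises, at 3.87, 3.97 and 3.36 CPM at 0.5% and 17.5, 11.8 and 16.0 CPM at 1% (log2 fold change 2.01, SE 0.18, adjusted p = 2.65e-07). The adhesion molecules CDH1 and EPCAM, chosen after their values were seen, had log2 fold changes of -0.19 (adjusted p = 0.0465) and 0.23 (adjusted p = 0.00774). Of the 30 markers of basal cells, fibroblasts, endothelium and leukocytes, 18 could be tested, 0 rose and 1 fell (the leukocyte marker NKG7, log2 fold change -1.41, adjusted p = 0.0305, under 1 CPM in all libraries, with the call lost in 6 of 18 alternatives). The collagen genes COL1A1 and COL1A2 had log2 fold changes of -0.11 and -0.14 and were not called; with GC and length corrected these were 0.23 and -0.38, both called. Fewer cells of a type and less RNA per cell cannot be told apart in bulk libraries.

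More oestrogen receptor targets fell than rose in each step: 16 of 31 fell in the first (median log2 fold change -0.40) and 19 of 31 in the second (median -0.79), with 4 rises in each. PGR, the progesterone receptor (chromosome 11, 101029624 to 101130524, minus strand), stood at 488, 483 and 522 CPM in the control libraries, and at 399, 674 and 413 CPM at 0.5% and 63.2, 50.1 and 61.4 CPM at 1%. Control and 0.5% libraries overlapped and the 1% libraries lay far below (log2 fold change -3.09, SE 0.21, adjusted p = 3.2e-06). CXCL12, a chemokine, stood at 50.1, 47.7 and 46.4 CPM at 0.5% and 10.7, 7.47 and 12.1 CPM at 1%, and TFF1, a classical oestrogen target, at 1.68, 0.529 and 0.671 CPM at 0.5% and 0.197, 0.11 and 0.124 CPM at 1%, low in all libraries. CCND1, cyclin D1, fell from 98.0, 114 and 112 CPM to 28.3, 20.5 and 30.2 CPM, after 212, 209 and 236 CPM in the control libraries. MYB, a transcription factor of oestrogen receptor positive tumours, rose at 0.5% (log2 fold change 0.53) and fell at 1% (log2 fold change -2.57). ESR1, STC2 and XBP1, described above, are members of this list too.

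Glycolysis genes were lower at 1% than in the control in nearly every case, but the dose step itself depended on which libraries were used. Of 21 genes tested, 7 fell (33.3%) and 0 rose, against 27.7% and 28.3% of all genes, with a median of -1.003. Every 1% library lay below every control library for 19 of the 21, where the share over all genes was 36.6%. The second library was the lowest of its group for 19 of the 21 at 0.5% and for 20 of the 21 at 1%. Over all 16840 genes tested this was so for 7031 at 0.5% and 6202 at 1%. Against the control mean, the median glycolysis gene stood at -0.66, -2.05 and -0.72 on the log2 scale in the 3 libraries at 0.5%, and at -1.76, -2.68 and -1.65 at 1%. Without both second treated libraries 18 of the 21 fell and 1 rose, where 30% of all genes fell and 30.4% rose. With the replicate number as a block 8 fell over all 9 libraries. Over only the 6 treated libraries, a fit added to the planned ones, 17 fell, where 30% of all genes tested that way fell. Without the second library at 0.5% 16 fell, without the second library at 1% 5 did, and without the first library at 0.5% 4 did. Whether the second libraries differ in hypoxia, handling or preparation was not tested.

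PFKFB3, which makes the activator of phosphofructokinase, stood at 698, 445 and 684 CPM at 0.5% and 126, 64.2 and 124 CPM at 1%, against 1018, 1022 and 987 CPM in the control libraries. The fall held at -2.54 on the log2 scale (SE 0.30, adjusted p = 0.000278) and at -2.46 without the second libraries. HK1, the constitutive hexokinase, fell with little spread, at 345, 339.6 and 339 CPM at 0.5% and 174, 162 and 174 CPM at 1% (log2 fold change -1.003, SE 0.06, adjusted p = 8.44e-09). ENO1, enolase, stood at 1964, 1066 and 2171 CPM at 0.5% and 872, 453 and 916 CPM at 1%, and PKM, pyruvate kinase, at 1989, 965 and 1998 CPM at 0.5% and 793, 462 and 797 CPM at 1%; in each the second library at 0.5% came close to the 1% libraries. Their falls were called (log2 fold changes -1.22 and -1.27, adjusted p = 0.0247 and 0.0159), as was that of the lactate exporter SLC16A3 (log2 fold change -1.31, adjusted p = 0.0375) and of PFKL, phosphofructokinase (log2 fold change -1.07). The calls of ENO1, PKM and SLC16A3 were lost in 4, 1 and 11 of the 18 alternatives, among them leaving out the first library at 0.5% (adjusted p = 0.0706, 0.0511 and 0.11). LDHA, lactate dehydrogenase, chosen after its values were seen, was not called with all libraries (log2 fold change -1.36, adjusted p = 0.182), with 1119, 200.0 and 1063 CPM at 0.5% and 411, 104 and 416 CPM at 1%, and had an adjusted p of 3.29e-17 and a log2 fold change of -1.40 without the second ones.

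Other hypoxia response genes did not move as a block. Of 40 tested, 5 rose (12.5%) and 10 fell (25%), against 28.3% and 27.7% of all genes, with a median of -0.31. The share of falls was thus near that of all genes. Without both second treated libraries 12 rose and 19 fell; without the second library at 1% alone 9 rose, with a median of -0.05, and with GC and length corrected 3 rose, with a median of -0.17. The second library was the lowest of its group for 31 of the 40 at 0.5% and 32 at 1%, against 7031 and 6202 of all 16840 genes. CITED2, a hypoxia-induced competitor of HIF for coactivators, showed the largest fall, at 343, 344 and 348 CPM in the control libraries, and at 316, 93.6 and 305 CPM at 0.5% and 23.5, 12.9 and 25.5 CPM at 1% (log2 fold change -3.54, SE 0.54, adjusted p = 0.00144). The 1% libraries were below all others, with the second 0.5% library between the groups. CA12, a carbonic anhydrase that is also an oestrogen target, stood at 403, 470.4 and 398 CPM at 0.5% and 134, 120.3 and 128 CPM at 1% (log2 fold change -1.74, SE 0.08, adjusted p = 4.15e-10), and the transcriptional repressor BHLHE40 fell by 1.74 on the log2 scale. Its relative BHLHE41 rose 8.76-fold from 1.23, 0.529 and 0.94 CPM to 8.09, 6.87 and 8.95 CPM. EGLN2, a HIF prolyl hydroxylase, fell by 1.49.

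VEGFA, the best known HIF target, was not called, at 485, 516 and 476 CPM in the control libraries, and at 451, 87.3 and 472 CPM at 0.5% and 497, 357 and 523 CPM at 1% (log2 fold change 0.45, adjusted p = 0.55; log2 fold change 0.15 and adjusted p = 0.0311 without both second treated libraries). The doses overlapped, and the second library was the lowest of each treated group. ANGPTL4, a secreted lipase inhibitor, was called with all libraries (log2 fold change -2.93, SE 0.90, adjusted p = 0.0309), with 39.9, 3.90 and 37.6 CPM at 0.5% and 4.21, 1.43 and 5.22 CPM at 1%, and the call was kept in 6 of the 18 alternative analyses (adjusted p = 0.0566 with the replicate block). Without the second libraries its log2 fold change was -3.03. HIF1A, which encodes the hypoxia-inducible factor subunit itself and was chosen after its values were seen, rose by 0.50 on the log2 scale (not called with GC and length corrected, adjusted p = 0.212), and EPAS1 (HIF2A), chosen in the same way, fell by 1.004. The core of the HIF binding site, ACGTG, was present in 18 of 31 matched promoters of this list (58.1%) and in 8 of 21 of the glycolysis list (38.1%), against 26.0% of all genes tested; in the hypoxia list 2 of the 18 rose and 6 fell, and of the 13 without it 1 rose and 4 fell, while in the glycolysis list 1 of the 8 with it and 6 of the 13 without it fell and 0 rose.

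**Figure D5:**
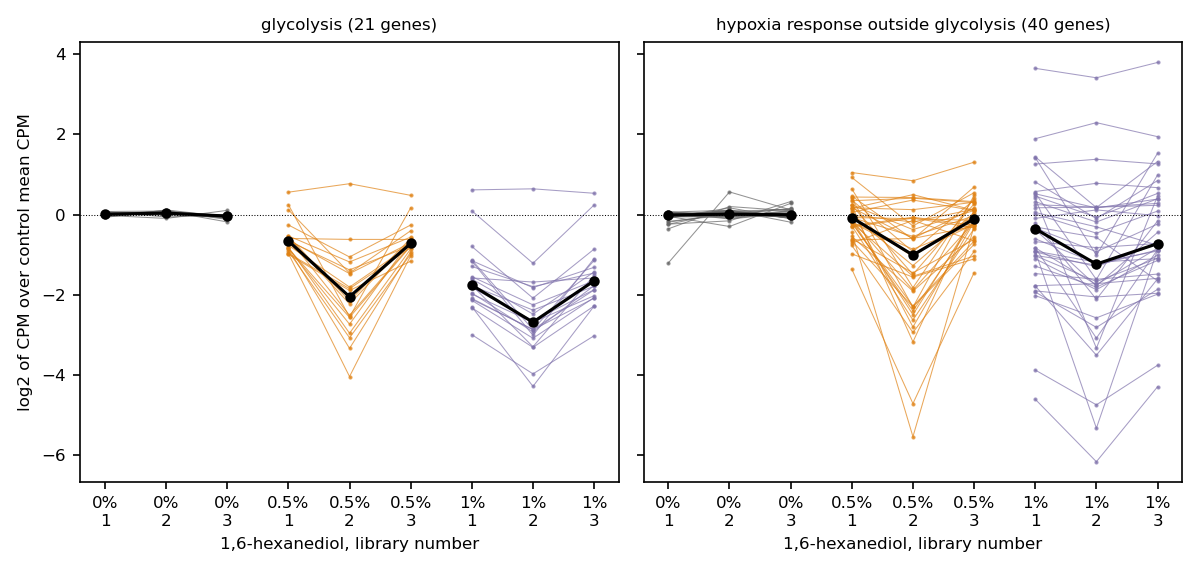
Log2 CPM over the control mean in each of the 9 libraries for glycolysis genes and for the other hypoxia response genes, with lines joining the values of a gene and the median in black. The second library is the lowest of its group at both doses, with a median glycolysis gene at -2.05 at 0.5% and -2.68 at 1%.

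More genes of lipid metabolism fell than rose at the second step. In the fatty acid list 15 of 28 fell (53.6%) and 8 rose (28.6%), and in the cholesterol list 15 of 31 fell (48.4%) and 6 rose (19.4%). Over all genes 27.7% fell and 28.3% rose, so the share of rises in the fatty acid list was near that of all genes. FASN, fatty acid synthase (chromosome 17, 82078333 to 82098332, minus strand), stood at 522, 512 and 505 CPM in the control libraries, and at 303, 315 and 285 CPM at 0.5% and 41.3, 49.7 and 43.0 CPM at 1%. The 3 groups did not overlap, and the second fall of 2.75 on the log2 scale (SE 0.08, adjusted p = 1.01e-11) was larger than the first (-0.77); the difference of the steps was -1.98 (adjusted p = 3.33e-08). ACLY, which supplies acetyl-CoA, and SCD, the desaturase, fell by 1.35 and 1.11. SREBF1, the transcription factor of this pathway, fell from 90.7, 63.9 and 87.1 CPM to 22.4, 24.4 and 24.4 CPM (log2 fold change -1.76, SE 0.11, adjusted p = 1.56e-08). ACACB, an acetyl-CoA carboxylase linked to fat oxidation, the acyltransferase DGAT2 and the elongase ELOVL7 rose 3.802-fold, 3.55-fold and 3.09-fold. HILPDA, a hypoxia-induced lipid droplet protein, fell by 1.56 (adjusted p = 0.0338, lost in 10 of 18 alternatives), with its second libraries the lowest. Among sterol genes the reductases TM7SF2 and DHCR7 fell by 2.14 and 1.02, and MVD by 1.08. The first step had already lowered 21 of the 31 cholesterol genes. IDI1 and FDFT1, which fell then (log2 fold changes -1.04 and -0.88), were not called in the dose step (log2 fold changes -0.17 and 0.06), although IDI1 was called lower without both second treated libraries (log2 fold change -0.29, adjusted p = 0.000208).

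Protein genes of the mitochondrial genome fell at the second step more widely than at the first. Of 13 such genes 12 fell across the dose step, 10 at least 2-fold, with a median of -1.08. In the first step 3 of 13 fell, with a median of -0.18. The step difference was called lower for 12. Together the 13 summed to 50903, 39951 and 50033 CPM at 0.5% and 22821, 26939 and 25357 CPM at 1%. The mitochondrial share of counts given above also covers genes that encode no protein, and it fell less. MT-CO3, a subunit of cytochrome oxidase, stood at 3307, 3176 and 3441 CPM in the control libraries, and at 1736, 1848 and 1647 CPM at 0.5% and 463, 703 and 519 CPM at 1% (log2 fold change -1.63, SE 0.13, adjusted p = 3.06e-07). MT-CYB, of complex III, stood at 3253, 3058 and 3238 CPM at 0.5% and 1207, 1608 and 1375 CPM at 1%, with all 1% libraries below all others. MT-ND5 fell least among the called ones, by 0.55. MT-ND6, encoded on the other strand of the mitochondrial genome and chosen after its values were seen, was not called (log2 fold change -0.45, adjusted p = 0.0715) but fell without both second treated libraries (log2 fold change -0.69, adjusted p = 1.27e-06); the strand setting used in counting is not given in the sources used here, so its reads and those of the overlapping opposite strand cannot be told apart. Of 38 respiratory chain subunits of the nuclear genome 6 rose (15.8%) and 10 fell (26.3%, against 27.7% of all genes), with a median of -0.03. SDHC and NDUFV1 fell by 0.78 and 0.60, NDUFV2 rose 3.47-fold from 2.32, 1.85 and 2.08 CPM, and COX4I1 and COX6C were not called (log2 fold changes -0.13 and -0.03); COX4I1 was called lower without the third library at 0.5% (adjusted p = 0.0272) and COX6C with GC and length corrected (adjusted p = 0.0349). With GC and length corrected 3 of the 38 rose, and without the third library at 1% 6 fell.

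Ribosomal protein genes declined by small and similar amounts, 25 of 38 falling and 0 rising, with a median of -0.24 and none changed 2-fold; without the third library at 1% 16 of them fell. RPL3 showed the largest fall, at 1045, 892 and 1002 CPM at 0.5% and 653, 649.6 and 674 CPM at 1% (log2 fold change -0.57, SE 0.07, adjusted p = 1.06e-05), and RPL5 the smallest of those named, at -0.20 on the log2 scale (adjusted p = 0.0312, lost in 6 of 18 alternatives). Many ribosomal protein genes have processed pseudogenes of near-identical sequence, so their counts are uncertain.

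Of 28 paraspeckle, speckle and stress granule genes, which scaffold or use condensates, 6 rose (21.4%) and 13 fell (46.4%), against 28.3% and 27.7% of all genes, and with GC and length corrected 6 rose and 18 fell. NEAT1 and MALAT1, non-coding RNAs found in paraspeckles and speckles, both fell in these polyA libraries, where gene counts do not separate their isoforms. NEAT1 stood at 1092, 1082 and 1090.3 CPM at 0.5% and 669.6, 782 and 667 CPM at 1%, and MALAT1 at 2672, 2422 and 3129 CPM at 0.5% and 1785, 1675 and 1623 CPM at 1%. In each the 1% libraries lay below all 0.5% and all control libraries (log2 fold changes -0.62 and -0.69). Of the RNA-binding proteins, the stress granule protein ATXN2 rose 1.70-fold, the splicing factors SRSF1 and SRSF2 fell by 0.62 and 0.61, and HNRNPA2B1 was not called (log2 fold change -0.13; -0.41 and called with GC and length corrected). In the Mediator, coactivator and RNA polymerase II list 14 of 38 rose (36.8%) and 11 fell (28.9%). MED30, the kinase CDK8 and MED10 rose 2.51-fold, 2.23-fold and 1.88-fold, MED16 and MED11 fell by 1.08 and 1.04, and BRD2 was not called (log2 fold change -0.09, adjusted p = 0.251; -0.16, adjusted p = 0.013 without both second treated libraries).

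Nuclear pore and cohesin genes rose more often. Of 28 nuclear pore genes 14 rose and 2 fell (1 to 5 under the alternatives, 4 with the replicate block and 4 without both second treated libraries), after 23 had fallen in the first step. Every 1% library was still below every control library for 19 of them, where the share over all genes was 36.6%. NUP58 stood at 28.2, 30.1 and 28.5 CPM in the control libraries, and at 20.7, 20.2 and 20.7 CPM at 0.5% and 53.6, 48.6 and 51.8 CPM at 1%, and so went past its control, as did NUP35 (2.15-fold) and NUP98 (1.55-fold), while NUP88 and NUP93 rose 1.58-fold and 1.57-fold and stayed below it. RANBP2, a large protein of the cytoplasmic face, fell by 0.54. TPR, of the nuclear basket, rose by 0.24 on the log2 scale, and after the GC and length correction its value was -0.03 and it was not called. Of 17 CTCF, cohesin and loop factors 13 rose and 1 fell (3 with the replicate block, 2 without both second treated libraries), with a median of 0.39, or 0.59 without the second library at 0.5%. RAD21, a core cohesin subunit, stood at 667, 608 and 687 CPM at 0.5% and 1103, 1170.0 and 1136 CPM at 1% (log2 fold change 0.80, SE 0.07, adjusted p = 1.64e-07), and SMC3, STAG1 and ESCO1 rose 1.63-fold, 1.62-fold and 1.57-fold. CDCA5 and ESCO2, which act on cohesin during S phase and mitosis, had fallen by 1.69 and 3.23 in the first step and rose by 1.58 and 1.55 in the second.

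Growth factor signalling genes of the immediate early kind moved in shares near those of all genes, 8 of 26 rising (30.8%) and 9 falling (34.6%), against 28.3% and 27.7%. The ERK phosphatase DUSP4 fell most, at 86.3, 57.8 and 83.9 CPM at 0.5% and 9.86, 13.1 and 11 CPM at 1% (log2 fold change -2.74, SE 0.15, adjusted p = 3.24e-08), below 138, 144 and 139.9 CPM in the control libraries. MYC stood at 19.2, 20.5 and 19.2 CPM in the control libraries, and at 10.5, 8.54 and 9.60 CPM at 0.5% and 3.16, 3.41 and 2.80 CPM at 1%; the 3 groups did not overlap. DUSP5, FOS and SPRED2 fell by 1.96, 1.79 and 1.10, and JUN was not called (log2 fold change -0.44, adjusted p = 0.328), but fell without both second treated libraries (log2 fold change -0.56, adjusted p = 1.55e-08). Among NF-kB targets and cytokines 7 of 15 rose and 2 fell; without the first or without the third library at 0.5% 4 rose. IL23A rose 7.55-fold, at 0.709, 0.397 and 0.604 CPM at 0.5% and 3.75, 4.01 and 5.34 CPM at 1%, and ICAM1, an adhesion receptor, 2.26-fold, while NFKBIA, the feedback inhibitor of NF-kB, rose in the first step (log2 fold change 0.89) and fell in the second (-0.998). Interferon-stimulated genes rose mainly in the first step, 15 of 26 against 3 falls, and in the second 8 rose (30.8%) and 6 fell (23.1%). IFIT1 rose in both (log2 fold changes 1.34 and 1.51), at 9.09, 7.94 and 10.1 CPM at 0.5% and 25.3, 25.9 and 26.1 CPM at 1%, whereas OAS2 rose at 0.5% (1.22) and fell at 1% (-1.08), where its libraries overlapped the control.

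ZHX2, the factor the series is about, was not called across the dose step. It stood at 11.3, 12.1 and 12.7 CPM in the control libraries, and at 16.8, 20.8 and 17.1 CPM at 0.5% and 17.1, 19.6 and 16.4 CPM at 1%. The 2 doses overlapped (log2 fold change -0.04, SE 0.11, adjusted p = 0.759), and both lay above the control libraries. Its relatives ZHX1 and ZHX3 moved slightly in opposite directions (log2 fold changes 0.19 and -0.25, adjusted p = 0.026 and 0.0333); after the GC and length correction ZHX1 was at -0.10, and without both second treated libraries ZHX3 was at -0.11 (adjusted p = 0.219). Their calls were lost in 9 and 7 of the 18 alternatives.

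Genes that depended on ZHX2 in hypoxia fell more often than they rose. From the shRNA experiment of the series, whose 9 libraries are separate from the hexanediol libraries, 451 of 14903 genes tested (3.03%) were at least 2-fold higher in hypoxia than in normoxia and at least 2-fold lower with a hairpin against ZHX2 in hypoxia; these 2 comparisons share the hypoxic control hairpin libraries. Of the 345 that could be tested here, 48 rose (13.9%) and 131 fell (38.0%), against 28.3% and 27.7% of all genes, with a median of -0.39 against -0.02. The first step had given 20 rises and 98 falls and a median of -0.39. The second library was the lowest of its group for 255 of the 345 at 0.5% and 215 at 1%, against 7031 and 6202 of all 16840 genes. CITED2 and VTCN1, described above, belong to the list; DHRS2, a short-chain dehydrogenase, is a member that rose, at 0.58, 0.529 and 0.873 CPM at 0.5% and 9.34, 10.7 and 10.4 CPM at 1%. The uncharacterised transcript ENSG00000287064 showed the largest change in the list, at 0.322, 0.0662 and 0.0671 CPM at 0.5% and 13.1, 11.1 and 14.0 CPM at 1%, and ENSG00000250644 the largest fall, at 12.3, 10.7 and 14.8 CPM at 0.5% and 0.263, 0.11 and 0.435 CPM at 1%. Other members with large falls were CCDC177, ENSG00000283413, MIRLET7BHG and the pseudogene NBPF13P, whose counts are uncertain because of its near-identical relatives. After the GC and length correction 62 rose and 98 fell, with a median of -0.12, where 26.8% of all genes rose and 26.8% fell, and without both second treated libraries 45 rose and 159 fell. GC content ran with the dose step over all genes (Spearman's rho -0.31 across 16685 genes, which are not independent replicates), and its part in the result was measured only through that correction. Among genes named above that stayed called, the correction moved ATF4 from 0.36 to 0.61 on the log2 scale, ESCO1 from 0.65 to 0.30, SMC3 from 0.70 to 0.40, STAG1 from 0.70 to 0.42 and RRM2B from 0.98 to 0.61. Falls became smaller for PFKL (-0.65), MVD (-0.64), NDUFV1 (-0.28), RPL3 (-0.36), MED16 (-0.62), P4HB (-0.35) and CALR (-0.23), and larger for RPL5 (-0.49), RANBP2 (-0.83) and PDIA3 (-0.48).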

How the data were processed

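The measured quantity was polyA RNA, and the values are the whole-number counts per gene that the authors deposited, for 9 hexanediol libraries and for 9 libraries of the shRNA experiment (used only for the ZHX2-dependent list). The submitters' processing notes name FastQC, HISAT2, featureCounts, DESeq2 and the build hg38. Their roles, the annotation and the strand setting of the counts are not stated there, so overlapping and antisense genes are uncertain. The rescue and sgRNA tables were not used here.

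The 9 libraries went into a single quasi-likelihood model of edgeR 4.0.16 (R 4.3.3) with robust dispersions, after TMM scaling and a filterByExpr filter on low counts that left 16840 genes. The common biological coefficient of variation was 10.2%. The contrasts were 1% minus 0.5%, 0.5% minus control, and the difference of these. Genes with a Benjamini-Hochberg adjusted p under 0.05, taken over all genes tested, were called. A standard error was obtained as the ratio of the log2 fold change to the root of its F statistic. The scripts were tested on simulated data. Counting noise and library number (3 a group) limit precision: a gene near 1 CPM rests on about 15 counts in a library.

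Named genes are ZHX2; the 12 largest rises, the 12 largest falls and the 6 largest step differences in each direction, taken from called genes that had an average log2 CPM of 1 or more, non-overlapping doses and a proper symbol; up to 8 members of each of 30 lists (878 genes), namely the 6 called with the largest change and the 2 with the highest level; and 10 ZHX2-dependent genes. Not all are given. The members and lists were chosen with earlier results of these data known. Promoters came from a RefSeq table on GRCh38.p14.

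Whether replicate numbers pair the libraries was checked by the correlation of deviations from group means. Libraries at 0.5% and 1% with the same number gave 0.112, 0.305 and 0.108, all over 0.1. They were treated as pairs only in the replicate block, and the main model held no replicate term. The first library at 0.5% with the third at 1% gave 0.124, and the third with the first 0.161. For those libraries the correlations do not single out the same number. Control numbers did not pair (correlations of 0.00223 to 0.0449). Alternatives were DESeq2 1.42.0, other scalings, no filter, a GC and length correction (mgcv 1.9.3), the replicate block, the 6 treated libraries alone, and leaving out libraries.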

Additional observations from a re-analysis of the deposited data

How the results depend on the processing

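The counts of rises and falls in the dose step stayed within 1.5 times of those reported under all 18 alternatives. Leaving out 1 library at a time gave 4258 to 5124 rises and 4161 to 5046 falls, of which 1477 to 1592 and 1571 to 1819 at least 2-fold. The replicate block took its pairs from the replicate numbers, those of the control libraries included, although control numbers did not pair. It kept 4733 of the 4762 rises and 4625 of the 4673 falls. It moved 2 list counts by over 1.5 times, the falls of the nuclear pore (2 to 4) and of the CTCF list (1 to 3). Limited to the 6 treated libraries the block kept 4565 and 4496 and also moved counts of the glycolysis, hypoxia, recombination and other-cell-type lists. DESeq2 kept 4486 and 4157. With GC and length corrected, 3744 and 3609 kept their call and 15 had the opposite call; MRE11 (-0.042), TPR (-0.031) and ZHX1 (-0.10) changed sign, and the cause was not tested. Without the 2-fold threshold the ZHX2-dependent list held 2916 genes in place of 451. At the lowest levels a change is limited by counting.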

Other observations

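Enzymes that oxidise alcohols and aldehydes split across the dose step, and 8 of the 25 listed had too few counts to be tested, among them ADH1A, ADH1B, ADH1C and ADH4, chosen after their values were seen. Of the 17 tested 5 rose (29.4%) and 9 fell (52.9%), against 28.3% and 27.7% of all genes, with a median log2 fold change of -0.27 against -0.02. ALDH1L2, a mitochondrial formyltetrahydrofolate dehydrogenase, stood at 75.6, 66.9 and 84.5 CPM at 0.5% and 226, 209 and 230.4 CPM at 1%, so every library at 1% was above every library at 0.5% (log2 fold change 1.55, SE 0.09, adjusted p = 2.45e-09). ALDH1A3, which makes retinoic acid, rose 2.06-fold (adjusted p = 1.47e-05), and DHRS3, a retinal reductase, fell by 0.99 on the log2 scale (adjusted p = 2.61e-06). ADH5, the class III alcohol dehydrogenase that clears formaldehyde adducts, stood at 149, 157 and 145 CPM at 0.5% and 191, 224 and 176 CPM at 1% (log2 fold change 0.39, adjusted p = 0.0013, and adjusted p = 0.128 with GC and length corrected). AKR1A1, an aldehyde reductase, fell by 0.65 on the log2 scale.

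Nucleolar genes moved in shares near those of all genes. Of 27 tested 7 rose (25.9%) and 8 fell (29.6%), against 28.3% and 27.7%, with a median of -0.10, after 1 rise and 15 falls in the first step; without the first library at 1% 5 fell, and without the third library at 1% 4 fell. RRN3, an initiation factor of RNA polymerase I, stood at 76.6, 84.9 and 79.7 CPM in the control libraries, and at 75.1, 80.8 and 78.5 CPM at 0.5% and 143, 148 and 144 CPM at 1% (log2 fold change 0.89, SE 0.07, adjusted p = 6.15e-08). DDX21, a nucleolar helicase, rose 1.71-fold, whereas the RNA acetyltransferase NAT10 fell by 0.87 and the ribosome assembly factors BOP1 and PES1 by 0.65 and 0.63 on the log2 scale; BOP1 was not called with GC and length corrected (adjusted p = 0.222), and PES1 and AKR1A1 stood at -0.35 and -0.40. NPM1, the abundant nucleolar phosphoprotein, was not called (log2 fold change -0.14, adjusted p = 0.177), but fell without both second treated libraries (log2 fold change -0.20, adjusted p = 0.0236).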
